A study of Mus musculus with 15 samples.

Results

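The 93 genes described here mostly encode proteins that write, erase or read chemical marks on histones and DNA, or that move nucleosomes. They were chosen by symbol: every row of the expression table whose symbol begins with Hdac, Kdm, Setd, Sirt, Brd, Chd, Prmt, Kat, Tet or Dnmt followed by a digit, or with Smarc. The rule took 93 of 11201 rows (0.83%) and used no measured value. By class these were 11 HDAC, 7 SIRT, 7 KAT, 7 BRD, 16 KDM, 9 SETD, 7 PRMT, 5 DNMT, 2 TET, 10 CHD and 12 SMARC rows. At least 3 rows carry the symbol without being the enzyme. Dnmt3aos is transcribed antisense to Dnmt3a, Smarca5-ps is a processed pseudogene of Smarca5, and Chd3os now has the name Rnf227 in the annotation. Setd8 and Prmt10 are older symbols of Kmt5a and Prmt9.

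DNA in the nucleus is wound around histone proteins, and the tails of these histones carry acetyl and methyl groups. Acetyltransferases (KAT) add acetyl groups, deacetylases (HDAC and the NAD-dependent sirtuins, SIRT) remove them, and bromodomain proteins (BRD) bind them. Methyltransferases for lysine (SETD) and arginine (PRMT) and lysine demethylases (KDM) do the same for methyl groups, DNMT and TET enzymes set and oxidise DNA methylation, and the ATP-driven CHD and SMARC remodellers slide or evict nucleosomes. In macrophages and microglia these enzymes act with signal-dependent transcription factors when inflammatory genes are switched on or off.

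RNA sequencing was done on ESdM, microglia derived in culture from C57BL/6-ATCC mouse embryonic stem cells. 6 libraries came from unstimulated cells, 3 from cells given LPS+IFNg (500 ng/ml lipopolysaccharide, a bacterial cell wall component, with 20 ng/ml interferon gamma), 3 from cells given IL4 (100 U/ml interleukin 4) and 3 from cells given TGFb (50 ng/ml transforming growth factor beta). All stimuli lasted 24 h, and the labels name no other genotype, allele or agent. All groups came from 1 stem cell line, and nothing in the labels tells whether replicates were cultured separately. The p-values therefore rest on the scatter among libraries, which may be technical. The values are the normalized read counts that the authors deposited. A fold is the ratio of 2 group means of these values. Log2 fold changes are differences of mean log2(value + 1), and can be smaller than the fold where values are low. They were tested with limma over every gene that reached 10 normalized reads in 3 or more libraries, and a gene is called at a Benjamini-Hochberg adjusted p below 0.05. All 93 members entered the test.

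The depth recovered from the values ran from 2682564 to 18676181 reads, with a median of 7589049. Csf1r, the receptor that macrophages and microglia need to survive, stood at 1581 in LPS+IFNg replicate 3 and at 3123 and 3155 in the other LPS+IFNg libraries. That library also stood apart over the 93 members, with a root mean square log2 difference of 0.316 and 0.328 from the other 2, which differed from each other by 0.15. Pairs of untreated libraries differed by 0.145 to 0.29. Of 12 microglia and macrophage markers 8 were in the table, and P2ry12, Fcrls, Sall1 and C1qa were not. Csf1r, Itgam, Spi1 and Trem2 had means of 1503 to 2790 in untreated cells, while Cx3cr1 (2.60 ± 2.28, SD, n = 6) and Tmem119 (7.62 ± 3.42) were near the floor of 1 that the table sets. The summed value of the 8 was 9599 to 10069 in untreated libraries, 7727 to 8646 with LPS+IFNg, 11777 to 12294 with IL4 and 14590 to 15164 with TGFb. What these shifts contribute to the values of the members was not tested. None of the marker genes listed for neurons, fibroblasts, embryonic stem cells or lymphocytes was in the table. As some microglia markers were absent too, absence from the table does not show that such cells were lacking. The summed levels of 2 astrocyte, 2 oligodendrocyte and 1 endothelial marker stayed at or below 111 in every library. In bulk RNA, fewer cells that express a gene and less RNA per cell cannot be told apart.

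In untreated cells the members covered a wide range of levels. Per kilobase of the longest annotated transcript, the highest were Chd4 (781 normalized reads per kb), the ATPase of the NuRD co-repressor complex, the main arginine methyltransferase Prmt1 (732), the histone H4 methyltransferase Setd8 (676), Brd2 (570) and the maintenance DNA methyltransferase Dnmt1 (562). The lowest were Hdac7 (4.50), Dnmt3aos (6.74), Setd4 (6.92) and the H3K27 demethylase Kdm6b (7.78). The median member stood at 88.71 per kb, against 81.38 over 11106 genes with an annotated length. The plot of levels per kb shows each member by class.

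**Figure D1:**
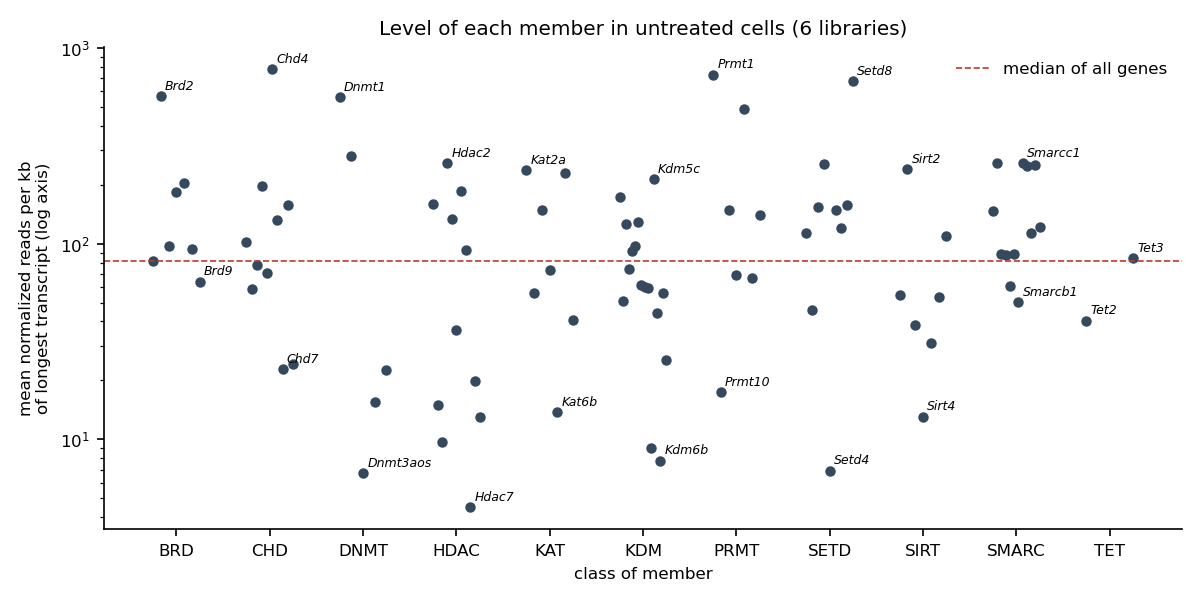
Mean normalized reads per kb of longest transcript (log axis) of each of the 93 members in the 6 untreated libraries, by class, with the dashed line at the median of all genes (81.38). The highest and lowest member of each class are named, from Chd4 at 781 to Hdac7 at 4.50.

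LPS+IFNg changed 55 of the 93 members, 24 upward and 31 downward (59.1% called). Over all 11138 genes tested, 58.9% were called, 29.5% higher and 29.4% lower, so the share among the members was near that of the whole table. TGFb changed 43, 24 upward and 19 downward (46.2%, against 47.5% of all genes, 24.1% higher and 23.4% lower). IL4 changed 11, 4 upward and 7 downward (11.8%, against 17.2% of all genes, 9.89% higher and 7.33% lower). The median log2 fold change of the members was -0.052 with LPS+IFNg, -0.030 with IL4 and 0.005 with TGFb, and the medians over all genes were 0.004, 0.001 and 0.014. Most changes were small, in the members as over all genes. With LPS+IFNg 6 of the 93 members passed 2-fold (10.7% of all genes did). With TGFb 2 did (5.05% of all genes) and with IL4 0 (1.02%). The median size of the log2 fold change was 0.265 with LPS+IFNg, 0.184 with TGFb and 0.093 with IL4. Over all genes it was 0.306, 0.236 and 0.131. Under none of the stimuli were 21 members called. The matching share over all genes was not counted, so whether 21 is many or few is not known. The 3 comparisons share the untreated libraries.

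The balance of higher and lower calls depended on the scaling of the libraries. When each library was rescaled to the same total, the median of all genes moved to -0.12 with LPS+IFNg, -0.064 with IL4 and -0.062 with TGFb, and the members called higher and lower became 18 and 43 with LPS+IFNg, 1 and 14 with IL4, and 14 and 28 with TGFb. With quantile normalization they were 21 and 41, 3 and 8, and 24 and 19. Over all genes, the share of calls that were higher went from 50% to 35.5% (same total) and 38.8% (quantile) with LPS+IFNg, from 57.4% to 34% and 47.4% with IL4, and from 50.8% to 37.8% and 45.1% with TGFb. Small changes named below therefore carry their sign relative to the authors' scaling.

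**Figure D2:**
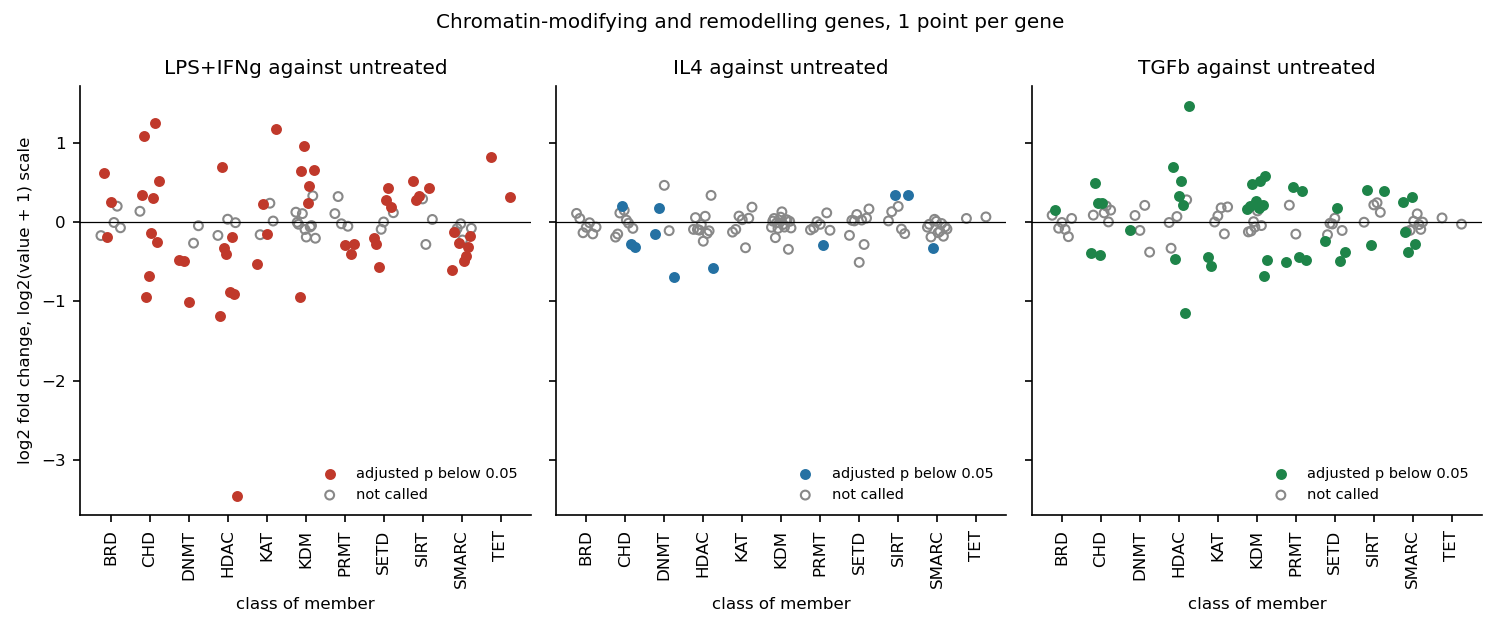
Log2 fold change of each member against untreated cells (log2(value + 1) scale), 1 point per gene by class, for LPS+IFNg, IL4 and TGFb. Filled points had a Benjamini-Hochberg adjusted p below 0.05 in limma (55, 11 and 43 of 93), and Hdac9 is the point at -3.45 with LPS+IFNg and at 1.47 with TGFb.

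The classical histone deacetylases included the member that moved most. Hdac9 is a class IIa deacetylase, a group with weak enzyme activity of its own that represses MEF2 and other factors as part of co-repressor complexes. Its values in the 6 untreated libraries ran from 73.9 to 137 with a median of 99.6. They were 6.20, 10.3 and 9.03 with LPS+IFNg, 70.5, 79.1 and 55.5 with IL4, and 268, 307 and 273 with TGFb. Every LPS+IFNg library lay below and every TGFb library above all untreated ones, while the IL4 libraries overlapped them. The group means of Hdac9 fell 12.2-fold with LPS+IFNg (log2 fold change -3.45, SE 0.19, limma adjusted p = 1.78e-11) and rose 2.73-fold with TGFb (1.47, SE 0.19, adjusted p = 4.61e-06). Both calls held under every alternative run, but the size of the first depended on the pseudocount: with 10 in place of 1 its log2 fold change was -2.595. The lower values with IL4 (-0.57, limma adjusted p = 0.0472) lost their call with quantile normalization and without any 1 of the IL4 libraries or of untreated replicates 1, 4, 5 and 6.

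The other class IIa enzymes did not move alike. Hdac5 had 838 to 1112 in untreated cells (median 1030), 521, 573 and 524 with LPS+IFNg, 944, 1151 and 1067 with IL4, and 1479, 1387 and 1438 with TGFb. It fell 1.86-fold with LPS+IFNg (log2 fold change -0.89, SE 0.08, limma adjusted p = 1.24e-08) and rose 1.43-fold with TGFb (0.52, SE 0.08, adjusted p = 1.98e-05), with no overlap with untreated libraries either way. Hdac7 was low, at 19.6 to 27.0 in untreated cells, and fell with TGFb to 10.4, 12.8 and 7.16 (-1.15, SE 0.25, limma adjusted p = 0.001). With LPS+IFNg Hdac7 stood at 13.9, 17.2 and 6.77 (limma adjusted p = 0.00446), a call that was lost without replicate 3. Hdac4 was higher with TGFb (363, 391 and 342 against 216 to 318, limma adjusted p = 0.0201), but not after rescaling to the same total, not without the 3 libraries with the fewest reads and not without TGFb replicate 1 or 2.

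Among class I deacetylases, which include the catalytic subunits of the NuRD, Sin3, CoREST and NCoR co-repressor complexes, Hdac3 and Hdac2 fell with LPS+IFNg. Hdac3, the enzyme of the NCoR co-repressor complex, went from 454 to 513 in untreated cells to 391, 369 and 333 (log2 fold change -0.40, SE 0.06, limma adjusted p = 1.3e-05). Hdac2 went from 749 to 955 to 699, 709 and 596 with LPS+IFNg (-0.32, SE 0.07, limma adjusted p = 0.000756) and between 574 and 625.3 with TGFb (-0.47, SE 0.07, adjusted p = 2.71e-05). Hdac1 (325 ± 13.8 untreated, 291 ± 40.7 with LPS+IFNg) and Hdac8 were not called under any stimulus. The weakly expressed Hdac10 fell with LPS+IFNg from 28.0 to 56.3 to 21.7, 21.5 and 12.4 (limma adjusted p = 0.000749). Hdac11, the class IV enzyme, rose with both LPS+IFNg (37.2, 42.1 and 47.4) and TGFb (43.0, 47.0 and 37.1), from 22.1 to 30.2 in untreated cells, with limma adjusted p = 0.00143 and 0.00196. The cytoplasmic tubulin deacetylase Hdac6 was 411 ± 17.1 with LPS+IFNg and 544 ± 34.6 with TGFb, against 468 ± 20.6 in untreated cells. Both of its calls were weak: the first was lost without LPS+IFNg replicate 2 or 3, the second on rescaling to the same total and without TGFb replicate 2 or 3.

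In all, 7 of the 11 HDAC rows were called lower and 1 higher with LPS+IFNg, against 29.4% and 29.5% of all genes. With TGFb 5 were higher and 2 lower (24.1% and 23.4% of all genes were). With IL4 only Hdac9 was called, against 17.2% of all genes (plot of deacetylase values).

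**Figure D3:**
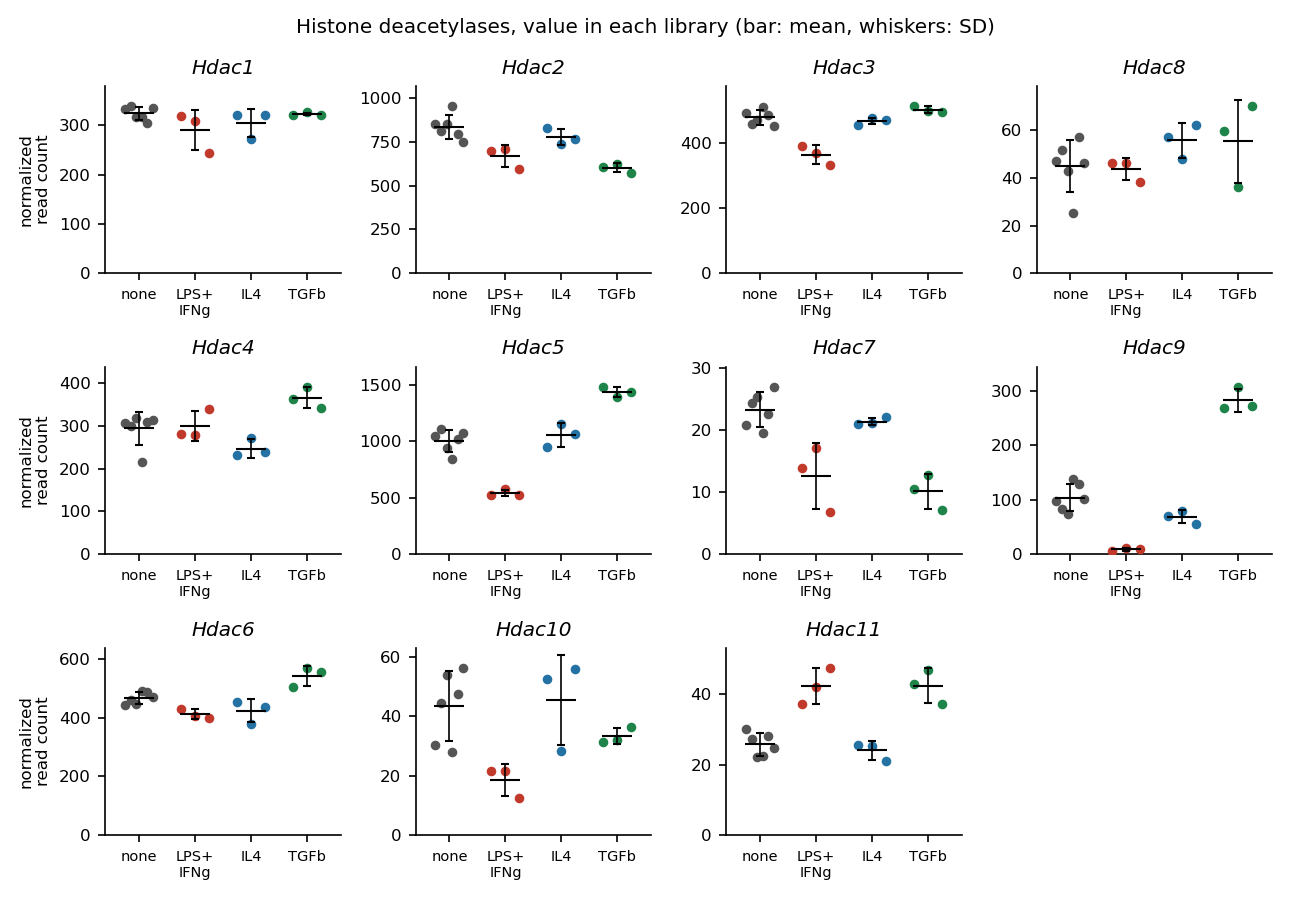
Normalized read count of the 11 histone deacetylases in each library (points), with the mean and SD of each group, for untreated cells (none, 6 libraries), LPS+IFNg, IL4 and TGFb (3 each); each axis starts at 0. Hdac9 lies at 6.20 to 10.3 with LPS+IFNg and 268 to 307 with TGFb, and Hdac5 moves the same way over a smaller range.

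The promoter sequences that RefSeq gives for Hdac9, for Kat8 and for Kdm4a are shown because these were among the members that LPS+IFNg moved most. They are the 250 bases before an annotated start, in the GRCm38.p6 build, 5′ to 3′ on the gene's strand, and capitals mark every match to 1 of 5 short motifs.
Hdac9 first start (chr12:34917096-34917345, minus strand): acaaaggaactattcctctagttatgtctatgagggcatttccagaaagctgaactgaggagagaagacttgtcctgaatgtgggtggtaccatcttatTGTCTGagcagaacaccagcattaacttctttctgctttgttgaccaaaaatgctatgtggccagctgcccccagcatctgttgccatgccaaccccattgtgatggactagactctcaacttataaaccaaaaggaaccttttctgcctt
Hdac9 second start (chr12:34528890-34529139, minus strand): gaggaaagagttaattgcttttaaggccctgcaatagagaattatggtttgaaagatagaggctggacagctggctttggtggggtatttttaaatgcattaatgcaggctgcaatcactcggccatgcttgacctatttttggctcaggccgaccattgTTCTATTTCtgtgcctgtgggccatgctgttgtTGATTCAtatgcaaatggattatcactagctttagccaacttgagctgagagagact
Kat8 second start (chr7:127912764-127913013, plus strand): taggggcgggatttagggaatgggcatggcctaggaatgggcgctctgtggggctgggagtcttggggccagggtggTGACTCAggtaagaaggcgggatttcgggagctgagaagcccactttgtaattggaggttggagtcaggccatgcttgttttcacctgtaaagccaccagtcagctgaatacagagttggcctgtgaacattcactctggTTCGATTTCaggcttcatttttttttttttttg
Kdm4a (chr4:118180044-118180293, minus strand): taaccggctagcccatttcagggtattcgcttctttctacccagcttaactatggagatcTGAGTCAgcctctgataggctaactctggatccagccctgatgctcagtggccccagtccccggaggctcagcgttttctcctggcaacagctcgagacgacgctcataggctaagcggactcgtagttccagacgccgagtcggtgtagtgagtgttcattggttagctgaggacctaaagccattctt
The motifs searched on both strands were TTCNNNGAA (the gamma-activated sequence), GAAANNGAA (the core of the interferon-stimulated response element), GGGNNTTCC (NF-kB), TGANTCA (AP-1) and CAGACA (SMAD). The first Hdac9 window holds a SMAD match 151 bases before the start. The second holds a response element core at 90 bases and an AP-1 match at 57 bases. The Kat8 window holds a response element core at 33 bases and an AP-1 match at 173 bases, and the Kdm4a window an AP-1 match at 190 bases. The other Kat8 start and the Tet2 start had 0 matches in these 250 bases.

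Such matches are common. Over the 32851 RefSeq windows of 300 bases (250 before to 50 after a start), 8.3% held TTCNNNGAA, 8.56% GAAANNGAA, 5.82% GGGNNTTCC, 7.81% TGANTCA and 21% CAGACA. RefSeq windows were given for 74 of the 93 members (105 windows), and of these 7.62%, 4.76%, 8.57%, 10.5% and 17.1% held the same motifs. Of the 74 members 20 rose and 25 fell with LPS+IFNg (29.5% and 29.4% of all genes did). Of the 7 with a TTCNNNGAA match 3 rose and 2 fell, and of the 5 with GAAANNGAA 2 rose and 2 fell. Of the 9 with GGGNNTTCC 5 rose and 3 fell. For TGANTCA 3 of 10 rose and 4 fell, and for CAGACA 4 of 16 rose and 7 fell. Members without an entry include Brd8, Chd1, Chd2, Chd3, Chd3os, Chd7, Hdac1, Hdac10, Hdac3, Kat6a, Kdm2a, Kdm3b, Kdm4b, Kdm5a, Kdm6b, Setd1b, Smarca5-ps and Smarce1.

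Of the sirtuins, 4 of 7 were called higher and 0 lower with LPS+IFNg (29.5% and 29.4% of all genes were), but only the rise of Sirt1 held in every alternative. Sirt1, which deacetylates histones as well as p53 and the NF-kB subunit RelA, had 233 to 262 in untreated cells and 318, 344 and 382 with LPS+IFNg (log2 fold change 0.52, SE 0.07, limma adjusted p = 5.22e-06). It was 244 ± 10.7 with IL4 and 242 ± 9.29 with TGFb. The calls of Sirt2, Sirt3 and Sirt6 with LPS+IFNg were each lost when libraries were rescaled to the same total and without LPS+IFNg replicate 3, those of Sirt3 and Sirt6 also with quantile normalization, and that of Sirt6 also with library weights or without replicate 2. Sirt7, a nucleolar sirtuin, rose with IL4 (405, 501 and 467 against 335 to 411, limma adjusted p = 0.00349) and with TGFb (460, 497 and 451, adjusted p = 0.000384). It overlaps Mafg over 124 bases on the same strand, and how far shared reads enter the Sirt7 value was not tested. Sirt2, mainly cytoplasmic, rose with TGFb to 651, 724 and 642 from 469 to 569 (limma adjusted p = 0.000428). It overlaps Nfkbib, an NF-kB inhibitor gene on the opposite strand, which had a mean of 186 in untreated cells, 711 with LPS+IFNg and 219 with TGFb, and without strand in the counting their shared reads cannot be told apart. The mitochondrial Sirt3 had a mean of 123 in untreated cells, 156 with LPS+IFNg, 156 with IL4 and 100.3 with TGFb. Its IL4 value lost its call (limma adjusted p = 0.0388) on rescaling to the same total and without any 1 IL4 library or untreated replicate 2, 3, 5 or 6, and its TGFb value (adjusted p = 0.0347) with library weights and without TGFb replicate 2 or 3 or untreated replicate 1 or 6. Sirt4 and Sirt5 were not called against untreated cells.

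Kat8 was the acetyltransferase that changed most. It encodes MOF, which acetylates histone H4 on lysine 16. Its untreated values ran from 57.4 to 78.5 with a median of 63.1, and the LPS+IFNg values were 149, 145 and 145. It rose 2.27-fold (log2 fold change 1.17, SE 0.16, limma adjusted p = 4.36e-06), while IL4 (73.7 ± 9.97) and TGFb (75.7 ± 21.4) overlapped untreated cells. Kat2a (GCN5), the catalytic subunit of the SAGA co-activator, went the other way, from 749 to 809 in untreated cells to 569, 591 and 457 with LPS+IFNg (-0.53, SE 0.07, limma adjusted p = 1.46e-06) and 576, 595 and 546 with TGFb (-0.44, SE 0.07, adjusted p = 2.53e-05). Its paralogue Kat2b (PCAF) fell with TGFb, from 241 to 294 to 179, 186 and 169 (limma adjusted p = 0.000604). Kat5 (TIP60) was 1.17-fold higher with LPS+IFNg (limma adjusted p = 0.0052), a call that ended on rescaling to the same total. Its overlapping neighbour Rnaseh2c had means of 208 and 233 in these groups. Reads shared by Kat5 and Rnaseh2c cannot be told apart without strand in the counting. Kat6a was 1.10-fold lower with LPS+IFNg (limma adjusted p = 0.042), a call lost without LPS+IFNg replicate 1 or 3 or any untreated replicate but the third. Kat6b and Kat7 were not called against untreated cells. With TGFb 0 of the 7 rows were higher and 2 lower (24.1% and 23.4% of all genes were). None was called with IL4 (17.2% of all genes were).

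Of the 7 bromodomain rows, 2 were called higher and 1 lower with LPS+IFNg (28.6% and 14.3%, against 29.5% and 29.4% of all genes). Brd2 is a BET protein, a family that binds acetylated histones and recruits the elongation machinery. Brd2 had 2523 to 2718 in untreated cells and 3695, 3844 and 4785 with LPS+IFNg, a 1.55-fold rise (log2 fold change 0.62, SE 0.06, limma adjusted p = 6.37e-08). It lies in the MHC class II region and overlaps H2-DMa over 3094 bases on the opposite strand. The count of H2-DMa itself rose from 6.70 ± 3.99 (n = 6) to 35.4 (17.0, 21.5 and 67.7). Without strand in the counting, reads shared by Brd2 and H2-DMa cannot be told apart. Brd3, a further BET protein, was 524 ± 32.9 untreated and 459 ± 23.8 with LPS+IFNg, a call (limma adjusted p = 0.0156) that did not stand without replicate 3. Brd2 was 1.11-fold higher with TGFb (limma adjusted p = 0.0463), and rescaling to the same total or leaving out any 1 library of either group ended that call. Brd1, Brd7, Brd8 and Brd9 were not called against untreated cells under any stimulus.

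Of the 16 lysine demethylases, 5 were called higher and 1 lower with LPS+IFNg (31.2% and 6.25%, against 29.5% and 29.4% of all genes) and 10 were not called. With TGFb 8 were higher and 2 lower (50% and 12.5%, against 24.1% and 23.4%), and with IL4 none was called (17.2% of all genes were). Kdm4a, a demethylase of H3K9 and H3K36, had the clearest rise: 569 to 633 in untreated cells (median 604), 1170, 1143 and 1233 with LPS+IFNg, 630, 611 and 563 with IL4, and 579, 568 and 590 with TGFb. The LPS+IFNg libraries stood 1.95-fold above untreated ones (log2 fold change 0.97, SE 0.05, limma adjusted p = 1.23e-11), and the other 2 stimuli overlapped them. Its paralogues Kdm4b and Kdm4c did not follow with LPS+IFNg (Kdm4b 264 ± 19.5 against 282 ± 27.5, Kdm4c 222 ± 27.1 against 253 ± 24.1).

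A further set rose with both LPS+IFNg and TGFb. Kdm7a, which removes H3K9 and H3K27 methylation, had 499 to 591 in untreated cells, 904, 807 and 812 with LPS+IFNg (log2 fold change 0.66, SE 0.08, limma adjusted p = 1.31e-06) and 781, 811 and 793 with TGFb (0.58, SE 0.08, adjusted p = 1.06e-05). Kdm3a, an H3K9 demethylase known to respond to hypoxia, had 416 to 472, then 752, 731 and 602 with LPS+IFNg (0.64, SE 0.07, limma adjusted p = 4.44e-07) and 607, 655 and 592 with TGFb (0.48, SE 0.07, adjusted p = 2.77e-05). The H3K4 demethylase Kdm5b rose with TGFb (114, 98.2 and 129 against 62.9 to 92.5, limma adjusted p = 0.00488). With LPS+IFNg it stood at 103, 98.9 and 122 (adjusted p = 0.00967, lost with quantile normalization and without LPS+IFNg replicate 3). For Kdm5a the call with LPS+IFNg (1.19-fold, limma adjusted p = 0.00252) ended on rescaling to the same total.

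Kdm2b went down with LPS+IFNg and Kdm6b with TGFb. Kdm2b, an H3K36 demethylase that brings a Polycomb complex to CpG islands, had 340 to 424 in untreated cells and 195, 231 and 172 with LPS+IFNg, a 1.93-fold fall (log2 fold change -0.95, SE 0.09, limma adjusted p = 5.98e-08). Its mean was 335 with IL4 and 356 with TGFb, and neither was called. Kdm6b (JMJD3), an H3K27 demethylase known as an early LPS-induced gene of macrophages, had 43.2 to 61.7 in untreated cells. After 24 h it stood at 56.6, 55.0 and 88.1 with LPS+IFNg, which overlapped untreated cells and was not called (limma adjusted p = 0.107), and at 43.6, 36.7 and 40.9 with IL4 (adjusted p = 0.196). With TGFb it fell to 26.1, 34.1 and 35.8, below every untreated library (-0.68, SE 0.17, limma adjusted p = 0.00328).

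Smaller TGFb increases were called for Kdm2a (1.15-fold), Kdm6a (1.16-fold), Kdm4b (1.20-fold), Kdm1a (1.13-fold) and Kdm5a (1.13-fold), with limma adjusted p from 0.0045 to 0.03. All 5 calls ended when libraries were rescaled to the same total. Those of Kdm6a, Kdm4b, Kdm1a and Kdm5a also ended without TGFb replicate 1, those of Kdm4b, Kdm1a and Kdm5a without replicate 3, and that of Kdm5a without untreated replicate 1 or 6. Kdm1a (LSD1) overlaps Luzp1 on the opposite strand, and Luzp1 rose 2.43-fold with TGFb (limma adjusted p = 2.88e-10), so how far shared reads enter the Kdm1a value was not tested. The lower Kdm8 value with TGFb (43.2 ± 7.21 against 60.7 ± 10.9, limma adjusted p = 0.0472) lost its call without TGFb replicate 1 or 3 or any untreated replicate but the first. Kdm1b, Kdm3b, Kdm4c and Kdm5c were not called against untreated cells.

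Both TET genes, whose enzymes oxidise methylcytosine, rose with LPS+IFNg (29.5% of all genes did). Neither was called with IL4 or TGFb (17.2% and 47.5% of all genes were). Tet2 had 337 to 398 in untreated cells, 659, 587 and 728 with LPS+IFNg, 443, 383 and 331 with IL4 and 395, 378 and 381 with TGFb. Its rise was 1.77-fold (log2 fold change 0.82, SE 0.09, limma adjusted p = 1.41e-07). Tet3 rose from 885 to 971 to 1199, 1149 and 1108 (0.32, SE 0.05, limma adjusted p = 7.1e-06) and was 966 ± 40.4 with IL4 and 906 ± 14.8 with TGFb. Tested directly, both were also higher with LPS+IFNg than with TGFb (Tet2 0.77, limma adjusted p = 1.86e-06, and Tet3 0.34, adjusted p = 1.34e-05). Tet1 had no row in the expression table.

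Of the 5 DNMT rows, 3 were called lower with LPS+IFNg (29.4% of all genes were), namely Dnmt1, Dnmt3a and the antisense row Dnmt3aos. Dnmt1, which copies methylation to the new strand after replication, had 3173 to 3378 in untreated cells, 2330, 2362 and 2424 with LPS+IFNg, 3032, 2903 and 2971 with IL4 and 3127, 3097 and 3051 with TGFb. It fell by 28.12% with LPS+IFNg (log2 fold change -0.48, SE 0.04, limma adjusted p = 2.28e-09). With IL4 it fell by 10.04% (limma adjusted p = 0.00706, lost without IL4 replicate 2). With TGFb it fell by 6.31% (limma adjusted p = 0.0436, lost without any 1 TGFb library or any untreated replicate but the fifth). Dnmt3a, a de novo methyltransferase, fell from 2680 to 2774 to 1953, 1952 and 1906 with LPS+IFNg (-0.49, SE 0.04, limma adjusted p = 7.49e-10). With IL4 it was higher, at 3140, 3140 and 2988 (0.18, SE 0.04, limma adjusted p = 0.00122), a call that ended on rescaling to the same total. The row of its antisense transcript Dnmt3aos was low (5.60 to 14.3 untreated, 3.87, 4.30 and 3.39 with LPS+IFNg, limma adjusted p = 0.0102). Dnmt3aos overlaps Dnmt3a over 2952 bases, and without strand in the counting their shared reads cannot be told apart. Dnmt3b was not called against untreated cells. Dnmt3l, a cofactor without enzyme activity, had a mean of 24.5 with IL4 against 41.4 (limma adjusted p = 0.0415), a call lost with quantile normalization and without any 1 IL4 library or any untreated replicate but the second.

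Markers of proliferation, which include genes of DNA replication and of mitosis, were read beside Dnmt1. Of 19 such markers 10 were lower and 3 higher with LPS+IFNg (29.4% and 29.5% of all genes were). With IL4 17 were lower and 0 higher (7.33% and 9.89% of all genes), and with TGFb 17 and 0 (23.4% and 24.1%). Their summed value was 26259 to 27325 in untreated libraries, 23130 to 25052 with LPS+IFNg, 21287 to 22359 with IL4 and 19666 to 19925 with TGFb. The mean of Dnmt1 and the proliferation sum were both below untreated with each stimulus. Dnmt1 was lowest with LPS+IFNg and the sum with TGFb. The part of proliferation in the Dnmt1, Prmt1, Prmt5 and Setd8 values was not tested.

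9 of the 10 CHD rows were called with LPS+IFNg, 5 higher and 4 lower (58.9% of all genes were called, 29.5% higher and 29.4% lower). Chd7, a remodeller known for its role at enhancers in development, had 202 to 254 in untreated cells, 549, 526 and 596 with LPS+IFNg, 216, 172 and 189 with IL4 and 277, 256 and 270 with TGFb. It rose 2.39-fold with LPS+IFNg (log2 fold change 1.26, SE 0.09, limma adjusted p = 3.22e-10), the largest rise of the 93. Chd2, which acts at transcribed genes, rose from 680 to 728 to 1411, 1315 and 1831 with LPS+IFNg (1.09, SE 0.07, limma adjusted p = 3.14e-10) and to 987, 1012 and 989 with TGFb (0.49, SE 0.07, adjusted p = 2.12e-05). The transcript 1810026B05Rik, which overlaps Chd2 on the same strand, had means of 39.8 untreated, 48.3 with LPS+IFNg and 66.6 with TGFb. How far shared reads enter the Chd2 value was not tested. Chd9 (370, 389 and 501 against 266 to 306), Chd6 (1720, 1672 and 1724 against 1298 to 1459) and Chd1l (211, 218 and 242 against 163 to 190) also rose with LPS+IFNg, with limma adjusted p of 0.000168, 3.29e-05 and 0.00209.

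The NuRD remodellers fell with LPS+IFNg and rose with TGFb. Chd3 had 1397 to 1465 in untreated cells, 735, 656 and 855 with LPS+IFNg, 1662, 1659 and 1609 with IL4 and 1731, 1609 and 1747 with TGFb, so that none of the stimulated libraries overlapped the untreated ones. It fell 1.92-fold with LPS+IFNg (log2 fold change -0.94, SE 0.06, limma adjusted p = 1.3e-10) and rose with TGFb (0.24, SE 0.06, adjusted p = 0.00284). The IL4 difference (0.20, limma adjusted p = 0.0293) lost its call under both other scalings and without any 1 IL4 library or untreated replicate 2 or 5. Chd4 moved less, from 5112 to 5481 to 4938, 4873 and 4522 with LPS+IFNg (-0.13, SE 0.04, limma adjusted p = 0.01) and to 6076, 6206 and 6303 with TGFb (0.24, SE 0.04, adjusted p = 8.03e-05). Chd8 fell with LPS+IFNg (1131 ± 111 against 1341 ± 78.7, limma adjusted p = 0.00199) and Chd1 fell with TGFb (642, 578 and 629 against 758 to 916, adjusted p = 0.000392). Chd3os fell with both (limma adjusted p = 8.08e-06 and 0.0018). With IL4, Chd7 and Chd9 were 1.21-fold and 1.23-fold lower (limma adjusted p = 0.0304 and 0.0345). Both calls were lost without IL4 replicate 2 or 3 or untreated replicate 3 or 6, that of Chd7 also without untreated replicate 2 and that of Chd9 without untreated replicate 4 or 5.

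**Figure D4:**
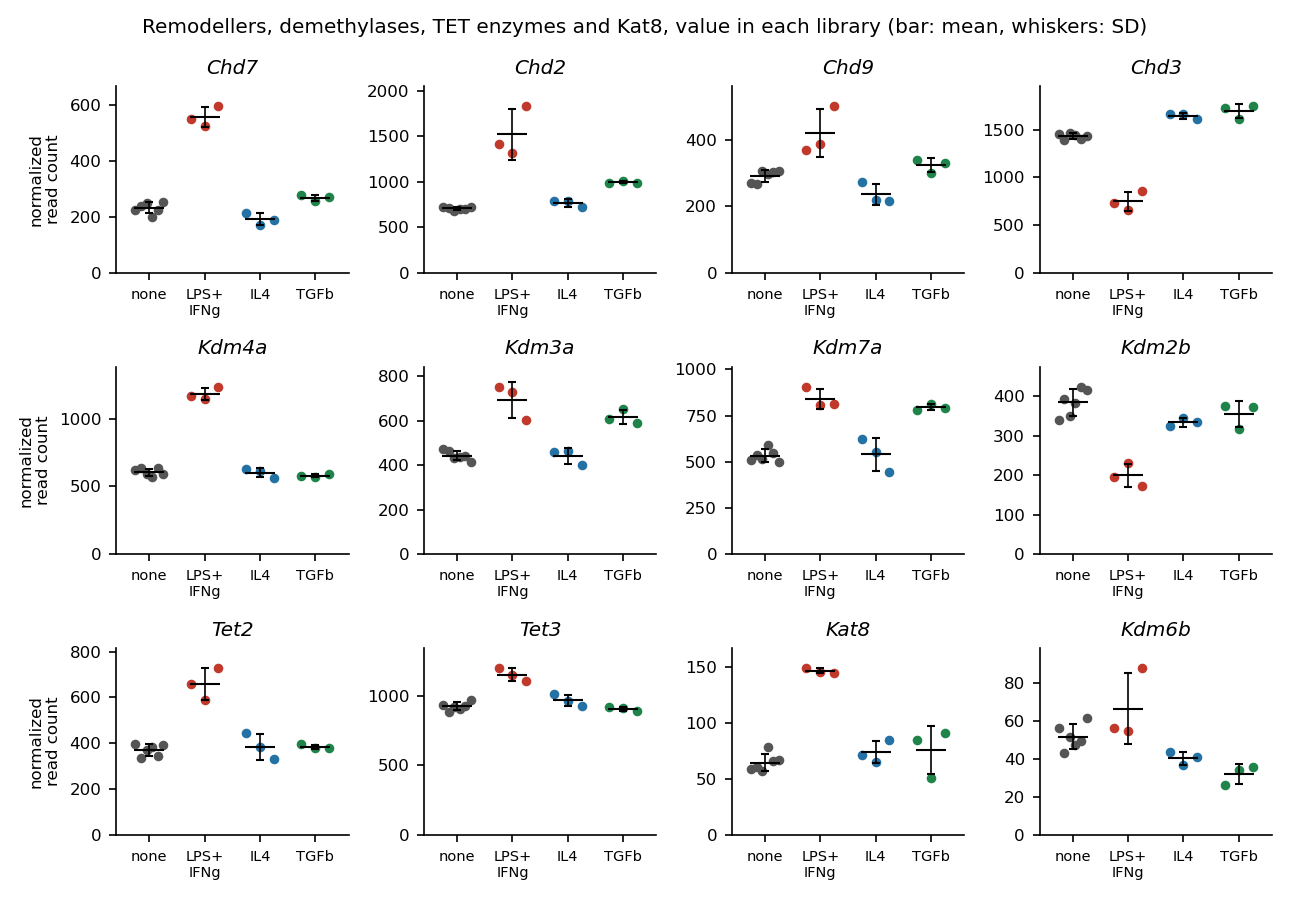
Normalized read count in each library (points) with the mean and SD of each group, for 4 CHD remodellers, 5 lysine demethylases, Tet2, Tet3 and Kat8; none stands for the 6 untreated libraries, and each axis starts at 0. Chd7, Chd2, Kdm4a, Tet2 and Kat8 are highest with LPS+IFNg, Kdm3a and Kdm7a are high with both LPS+IFNg and TGFb, and Chd3 and Kdm2b are lowest with LPS+IFNg.

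No SMARC row was called higher with LPS+IFNg, and 7 of 12 were lower (29.5% and 29.4% of all genes were). The largest fall was that of Smarca2 (BRM), 1 of the 2 alternative ATPases of the BAF complex. It had 829 to 906 in untreated cells, 607, 574 and 539 with LPS+IFNg, 891, 813 and 796 with IL4 and 1058, 1035 and 1022 with TGFb. It fell 1.52-fold with LPS+IFNg (log2 fold change -0.60, SE 0.05, limma adjusted p = 6.85e-09) and rose with TGFb (0.25, SE 0.05, adjusted p = 0.000413). The scaffold subunits Smarcc1 (1058 ± 138 against 1487 ± 112, limma adjusted p = 7.03e-06) and Smarcc2 (845 ± 44.6 against 1135 ± 34.9, adjusted p = 2.67e-07) and the accessory subunit Smarcd2 (611 ± 13.1 against 693 ± 30.8, adjusted p = 0.00441) fell with LPS+IFNg as well. Smarca4 (BRG1), the other ATPase, was 1504 ± 5.46 with LPS+IFNg and 1497 ± 32.8 with TGFb against 1639 ± 70.2. Its calls were weak (limma adjusted p = 0.0345 and 0.033). The first was lost without LPS+IFNg replicate 1 or 2, the second without any 1 TGFb library, and both without untreated replicate 1, 3, 5 or 6. The calls of Smarcd1 and Smarcad1 with LPS+IFNg were lost without LPS+IFNg replicate 3, and that of Smarcad1 also without untreated replicate 2, 5 or 6.

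With TGFb, Smarcc1 fell to 1218, 1219 and 1241 from 1371 to 1656 (limma adjusted p = 0.00344), and Smarcal1, a fork-remodelling helicase, rose to 420, 465 and 439 from 313 to 383 (adjusted p = 0.00193). The pseudogene row Smarca5-ps was lower with TGFb (limma adjusted p = 0.000944) and with IL4 (adjusted p = 0.00899, lost without IL4 replicate 2). Its reads may be shared with Smarca5, which it resembles and which was not called (542 ± 31.9 untreated, 475 ± 3.68 with IL4, 499 ± 39.0 with TGFb), so the row is uncertain. Smarcb1 and Smarce1, core subunits, were not called.

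Of the 7 arginine methyltransferase rows, 3 fell and 2 rose with TGFb (23.4% and 24.1% of all genes did). With LPS+IFNg 3 fell and 0 rose (29.4% and 29.5% of all genes did), and with IL4 1 fell (7.33% of all genes did). Prmt1, which places most asymmetric dimethylarginine, had 1507 to 1709 in untreated cells, 1599, 1675 and 1803 with LPS+IFNg, 1446, 1381 and 1578 with IL4 and 1112, 1088 and 1125 with TGFb. It fell by 29.42% with TGFb (log2 fold change -0.50, SE 0.05, limma adjusted p = 3.34e-07). Prmt5, the main enzyme for symmetric dimethylarginine, fell with IL4 (1055, 1024 and 1129 against 1227 to 1454, limma adjusted p = 0.00148) and TGFb (938, 1001 and 944, adjusted p = 4.03e-06). It was 1 of the 2 IL4 changes that held in every alternative, the other being the rise of Sirt7. Prmt7 fell with TGFb (349 ± 26.6 against 484 ± 13.5, limma adjusted p = 3.74e-06) and with LPS+IFNg (400.2 ± 27.0, adjusted p = 0.000755). Prmt2 rose with TGFb to 437, 414 and 413 from 276 to 335 (limma adjusted p = 0.000109). Prmt6 fell with LPS+IFNg (155 ± 22.8 against 204 ± 19.9, limma adjusted p = 0.00534) and was higher with TGFb (266 ± 16.4, adjusted p = 0.00919, lost on rescaling to the same total). Prmt3 fell with LPS+IFNg (limma adjusted p = 0.00561), and Prmt10 was not called.

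Of the 9 SET-domain rows, 3 were higher and 3 lower with LPS+IFNg (33.3% each, near the 29.5% and 29.4% of all genes). Setd6, which methylates the NF-kB subunit RelA, had 185 to 223 in untreated cells, 246, 277 and 301 with LPS+IFNg, 179, 154 and 169 with IL4 and 157, 122 and 159 with TGFb. It rose with LPS+IFNg (log2 fold change 0.43, SE 0.10, limma adjusted p = 0.00169) and fell with TGFb (-0.49, SE 0.10, adjusted p = 0.000805). The H3K36 methyltransferase Setd2 fell with LPS+IFNg from 1232 to 1340 to 939, 967 and 710 (-0.57, SE 0.08, limma adjusted p = 8.25e-06). Setd5 rose 1.21-fold with LPS+IFNg (limma adjusted p = 8.63e-05). Setd8, which monomethylates H4K20, fell with TGFb to 1374, 1475 and 1424 from 1774 to 1939 (-0.38, SE 0.06, limma adjusted p = 2.42e-05), and Setd1a, an H3K4 methyltransferase, fell with TGFb as well (adjusted p = 0.00269). Weaker calls were those of Setd7 with LPS+IFNg (lost on rescaling to the same total), Setd1a (lost without LPS+IFNg replicate 2), Setd1b (lost without LPS+IFNg replicate 1 or 3 or untreated replicate 6) and Setd5 with TGFb (lost on rescaling and without TGFb replicate 3). Setd3 and Setd4 were not called against untreated cells.

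Compared directly, LPS+IFNg and TGFb differed in 54 members, 25 higher and 29 lower with LPS+IFNg (58.1%, against 62.6% of all genes). Hdac9 differed most, by 33.2-fold between the group means (log2 fold change -4.92, SE 0.22, limma adjusted p = 7.2e-13, and -3.987 with a pseudocount of 10). Hdac5 was 2.66-fold lower with LPS+IFNg (-1.41, SE 0.09, adjusted p = 1.07e-10), Chd3 2.27-fold lower (-1.19, SE 0.07, adjusted p = 3.28e-11) and Smarca2 1.81-fold lower (-0.86, SE 0.06, adjusted p = 2.93e-10). Chd7 (2.08-fold), Kdm4a (2.04-fold), Kdm6b (2.08-fold), Kat8 (1.93-fold) and Setd6 (1.88-fold) were higher with LPS+IFNg, with limma adjusted p from 3.58e-11 to 0.000225. These 9 calls held in every alternative. The deacetylases that fell in both, Hdac7 and Hdac2, did not pass the test between the 2 stimuli (limma adjusted p = 0.493 and 0.132), nor did Kdm7a (log2 fold change 0.08, SE 0.09), Kdm3a (0.16, SE 0.08) and Hdac11 (-0.0034, SE 0.19), which does not show that the stimuli act alike on them.

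**Figure D5:**
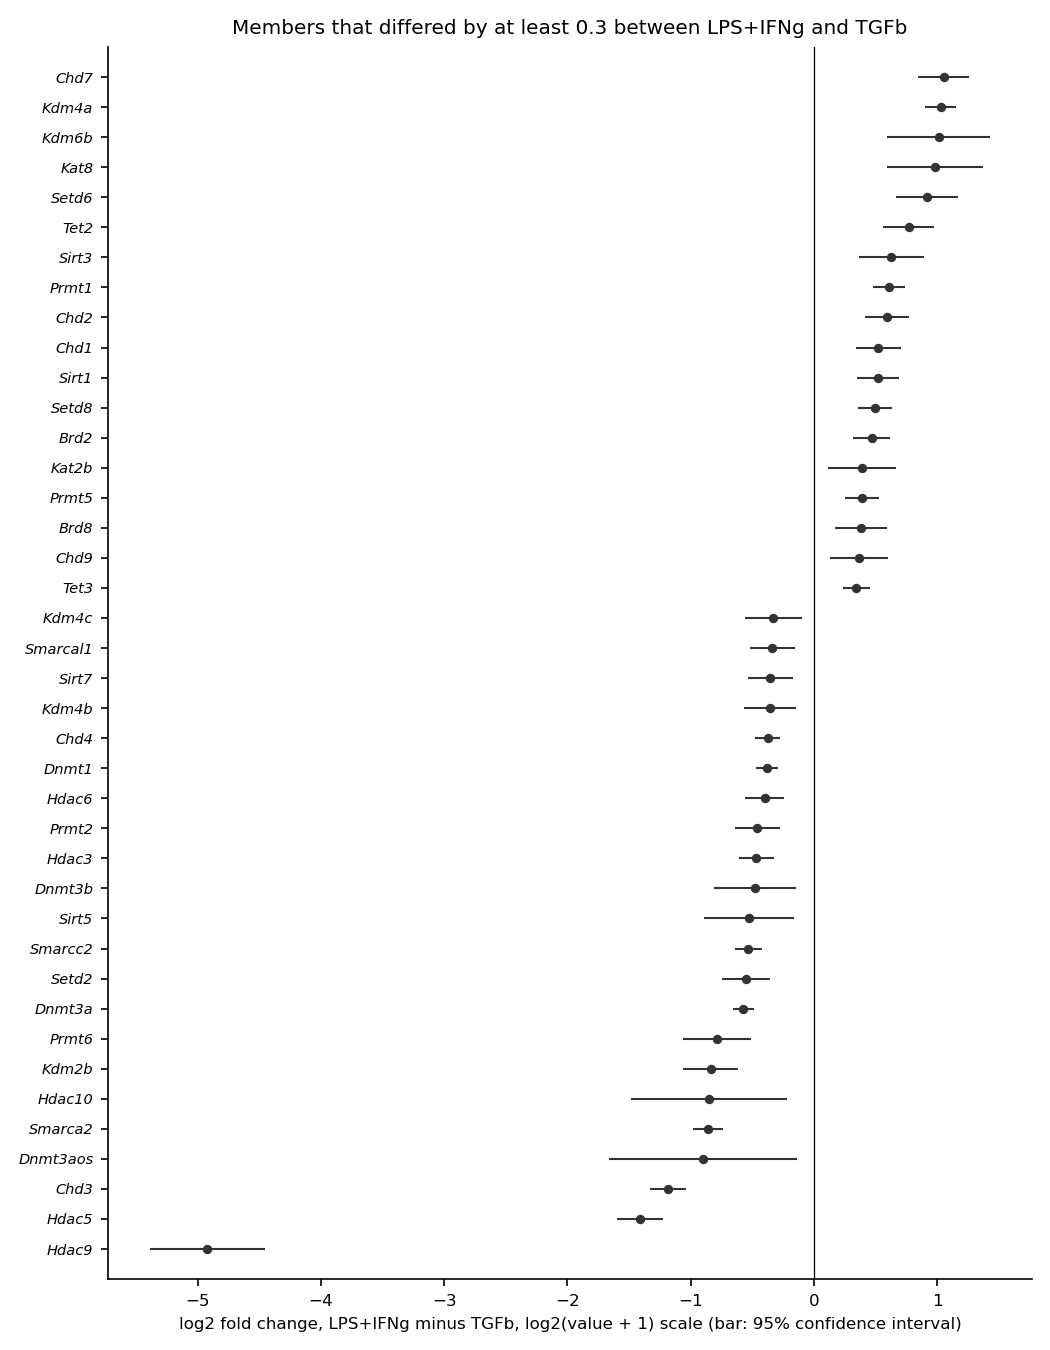
Log2 fold change of LPS+IFNg over TGFb (log2(value + 1) scale) with its 95% confidence interval from limma, for the 40 of the 54 called members that differed by at least 0.3 (3 libraries each). Hdac9 lies apart at -4.92, followed by Hdac5 at -1.41, and Chd7 is at the other end at 1.05.

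LPS+IFNg and IL4 differed in 59 members, 30 higher and 29 lower with LPS+IFNg (63.4%, against 57.7% of all genes), including all 10 CHD rows. Among them were Hdac9 (8.03-fold lower with LPS+IFNg, log2 fold change -2.88 or, with a pseudocount of 10, -2.076, limma adjusted p = 2.32e-09), Chd7 (2.90-fold higher, adjusted p = 1.63e-10) and Chd3 (2.20-fold lower, adjusted p = 7.68e-11). IL4 and TGFb differed in 30, 10 higher and 20 lower with IL4 (32.3%, against 39.7% of all genes). Hdac9 was 4.14-fold lower with IL4 than with TGFb (limma adjusted p = 6.21e-07). Hdac7 was 2.11-fold higher with IL4 (adjusted p = 0.00802), a call lost without TGFb replicate 3.

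The small IL4 counts rested on single libraries. The 4 higher calls became 2 without IL4 replicate 1, 2 or 3 or untreated replicate 2 or 5, and the 7 lower calls became 4 without untreated replicate 3 or 5, 3 without untreated replicate 6 or IL4 replicate 3, and 1 without IL4 replicate 2. Without LPS+IFNg replicate 3, the library that stood apart, 44 of the 55 LPS+IFNg calls remained. Leaving out the 3 libraries with the fewest reads (untreated replicates 1 and 4 and TGFb replicate 2) ended the calls of Kat6a and Smarca4 with LPS+IFNg, of Chd3, Chd9, Dnmt3l and Hdac9 with IL4, and of Brd2, Dnmt1, Hdac4, Hdac6, Kdm5a, Sirt3 and Smarca4 with TGFb. Library weights ended those of Kat6a, Sirt6 and Smarcd1 with LPS+IFNg.

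Chromatin genes outside the symbol rule were read from 10 lists of partner subunits and related enzymes, 122 genes of which 117 were in the table. With LPS+IFNg 31 were higher and 36 lower, with IL4 4 and 11, and with TGFb 22 and 27, to be read beside the 58.9%, 17.2% and 47.5% of all genes called. The H3K9 methyltransferase Setdb2 rose with LPS+IFNg, from 68.7 ± 7.24 (n = 6) to 317, 321 and 438 (log2 fold change 2.36, limma adjusted p = 7.53e-11), with no call for IL4 or TGFb. Pcgf5, a Polycomb subunit, rose 3.01-fold (limma adjusted p = 3.01e-07) and Kmt2a (MLL1), an H3K4 methyltransferase, 2.05-fold (adjusted p = 4.42e-08). The demethylase Phf8 fell 2.61-fold (limma adjusted p = 7e-12) and Uhrf1, which guides Dnmt1 to newly copied DNA, fell 1.98-fold (adjusted p = 1.33e-12). Uhrf1 had 659, 662 and 655 with LPS+IFNg, 1098, 1033 and 1180 with IL4 and 964, 967 and 919 with TGFb, against a mean of 1301 in untreated cells. Of the 11 listed remodellers outside the rule, 1 was higher and 5 lower with TGFb (24.1% and 23.4% of all genes were). The higher one was Ercc6, which rose 2.19-fold with TGFb (limma adjusted p = 2.47e-11) and was lower with LPS+IFNg (log2 fold change -0.297). Ezh2, the H3K27 methyltransferase of Polycomb complex PRC2, fell 1.61-fold with TGFb (limma adjusted p = 5.09e-06). Each call given here for a named gene held in every alternative.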

How the data were processed

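Total RNA of ESdM had been made into 15 libraries with the Illumina TruSeq RNA kit, per the labels' protocols. The submitters' processing notes name TopHat2 2.0.3, Partek 6.6, R 3.0.2, DESeq2 and the mm10 build. The annotation, the counting rule and the use of strand are not given in the sources used here. The deposited values are normalized read counts (a signal that is never negative) for 11201 gene symbols. In the deposited table, values above 1 are whole multiples of what 1 read is worth in that library, and lower values are set to 1, as the values themselves show. No member is at that floor in any library.

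A single limma 3.58.1 model (R 4.3.3, empirical Bayes with trend) was fitted to log2(value + 1) of the 15 libraries for the 11138 genes that reached 10 normalized reads in 3 or more libraries. All 6 comparisons between the 4 groups were taken from it, with Benjamini-Hochberg adjustment over all genes tested, and the script was tested on simulated data. Named with values are up to 3 called members per class, direction and stimulus, the most changed members per stimulus, those called in opposite directions by 2 stimuli, the highest and lowest per length, and any other member as values. Some genes are not reported here. The members and gene lists were chosen with earlier results of these data known. Alternatives were another pseudocount, other filters, 2 other scalings, library weights and leaving out libraries. Promoter windows came from RefSeq (GRCm38.p6), and transcript lengths and overlaps from the reference annotation.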

Additional observations from a re-analysis of the deposited data

Results flagged for a closer look

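In 4 of the 93 members, 1 of the 6 untreated libraries lay far from the other 5 by Dixon's test, and chance flags about 1 in 20 groups. Brd1 stood at 316.6 in untreated replicate 4, against 409.3 to 455.8 in the others. Hdac4 stood at 215.8 in the same library, against 299.2 to 317.9. Kdm4c stood at 301.3 in untreated replicate 3, against 238.2 to 248.9. Kdm1b stood at 277.1 in untreated replicate 5, against 243.3 to 252.8. Untreated replicate 4 is 1 of the 3 libraries with the fewest reads. Without it the TGFb call of Hdac4 stood, Hdac4 was also called lower with IL4, and Brd1 was called lower with LPS+IFNg. The groups of 3 libraries were not tested in this way.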

How the results depend on the processing

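No change of direction was seen in any called member of the 6 comparisons under any alternative. Of the calls against untreated cells, 39 of 55 (LPS+IFNg), 2 of 11 (IL4) and 29 of 43 (TGFb) stood under every alternative, and between stimuli 41 of 59 (LPS+IFNg against IL4), 39 of 54 (LPS+IFNg against TGFb) and 23 of 30 (IL4 against TGFb). With each library rescaled to the same total, the IL4 counts were 1 higher and 14 lower (in place of 4 and 7) and the TGFb count 14 higher (in place of 24). With library weights, chosen after seeing the data, 12 were lower with IL4, and 18 were higher and 31 lower in IL4 against TGFb (in place of 10 and 20). Leaving out 1 library gave 2 to 4 higher and 1 to 7 lower with IL4. The cause of these shifts was not tested. The other counts stayed within 1.5 times. The planned count tests were not run, because values below 1 had been set to 1 (up to 2 reads in the deepest library) and raw counts were not used. The log2 fold changes of Hdac9 with LPS+IFNg against the other 3 groups came closer to 0 with a pseudocount of 10, by over 1.5 times on the fold scale. No paired analysis was possible because the labels give no replicate numbers or shared batches. Members near 10 to 30 normalized reads (Hdac7, Dnmt3aos, Setd4, Sirt4) are measured with the least precision.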
